A study of Mus musculus with 9 samples.

Results

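The response of the mouse aorta to angiotensin II (Ang II) was measured by comparing 3 arrays of Ang II-infused mice with 3 arrays of Vehicle mice, chosen by the group in their titles, out of 9 arrays in all. Each array held RNA from the whole aortae of male C57BL/6J mice aged 8-10 weeks. Ang II mice carried an osmotic pump that delivered Ang II at 1 mg/kg/day for 2 weeks, whereas Vehicle mice carried pumps loaded with PBS, and neither group received MK-626, the drug of the third group. The sample labels of these 6 arrays describe berberine, the drug of a companion study that used the same arrays, and the labels place none of the 6 in a berberine group. The other 3 arrays, from mice that received Ang II with the DPP-4 inhibitor MK-626, entered no comparison, and served for the estimate of the spread, the background boundary, the layout of the array and the naming of probes. The series design gives 3 mice per group, so the replicates were taken as separate animals. The scans of these 6 arrays are not known here, and an array batch and the group cannot be told apart.

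Ang II is the peptide at the end of the renin-angiotensin cascade. It acts through G protein-coupled receptors on vascular smooth muscle and endothelium, raises vascular tone, and over days to weeks promotes remodeling of the arterial wall and inflammation. A long infusion is a widely used mouse model of hypertension. The wall itself consists of smooth muscle that contracts when calcium enters, an endothelium that releases nitric oxide, and an adventitia of fibroblasts and matrix. The adhesion of these cells to the matrix depends on integrins, which are paired membrane receptors.

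The 1-colour arrays carried probes for lncRNAs and mRNAs. The values analysed were log2 intensities that the authors had quantile-normalized, a step that gives every array the same distribution, so a change is relative to the other probes of the array. Of 60902 probes, 68 control probes were left out and 60834 were tested. The deposited table lists probes without gene names. The genes of 23 probes could be identified, so the smooth muscle and endothelial markers that would check the tissue label could not be looked up, and most of the response is described here by probe. Probes below a normalized log2 value of 3.9 were taken as background. This boundary came from scanner flags of the MK-626 arrays, where 98.6% to 99.9% of probes at or over it and 0.0713% to 3.84% of probes under it were well above background. The 15 negative probes among the tested ones ranged from 2.32 to 3.40 over the 6 arrays, and none reached the boundary.

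One array stood apart. Single-array excursions were counted as probes whose value differed by over 2 on the log2 scale from the mean of the other 2 arrays of its group, which lay within 0.5 of each other. Ang II replicate 1 had 607, of which 566 were high, compared with 30 to 70 on each of the other 5 arrays. On this array 411 of the 566 high probes (72.6%) lay in the last 20 of the 164 columns of the grid, a strip that holds 12.1% of all probes, and 488 of the 566 were below the background boundary on the other Ang II arrays. The corresponding share in the strip on the other 5 arrays was 4.08% to 10.3%. The strip was defined after the positions were seen, and what produced the excursions was not tested. Outside the strip, 4.73% of probes were raised and 3.79% lowered, and inside it 5.20% and 2.67%.

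**Figure D1:**
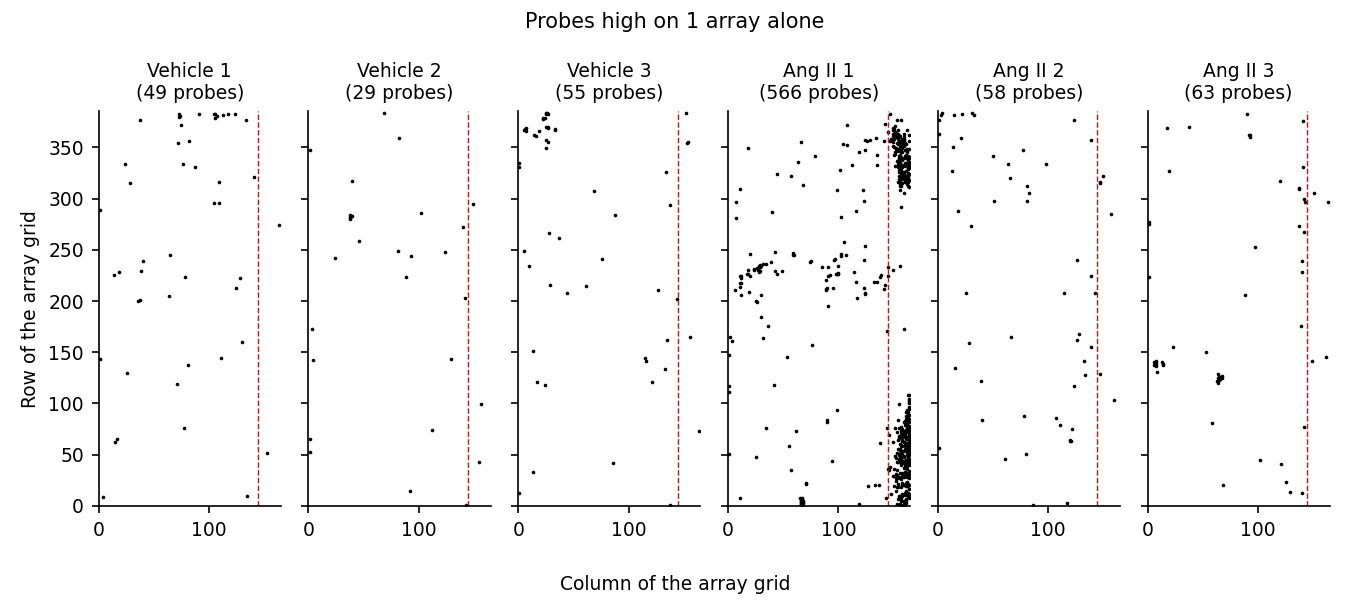
Grid position (column against row) of each probe that was over 2 log2 units higher on 1 array than on the other 2 arrays of its group, with 1 panel per array and a dashed line where the last 20 columns begin. Ang II replicate 1 holds 566 such probes, 411 of them right of the line, whereas the other arrays hold 29 to 63.

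Ang II changed the level of 5135 probes (8.44% of those tested) compared with Vehicle, where a change means a difference of over 2-fold with a limma p under 0.05 before adjustment. Of these, 2913 (4.79%) were raised and 2222 (3.65%) were lowered. With the limma p adjusted by Benjamini-Hochberg over all probes, 4457 probes (7.33%) still passed with a fold change over 2. Because whole aortae were measured, fewer cells of a type and less RNA per cell cannot be told apart.

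Among the changed probes, increases were more numerous than decreases in each range of size, and more so above 4-fold. Raised probes had a median log2 change of 1.53 and lowered probes of -1.29. Among probes with a change of over 4-fold, 693 were raised and 330 lowered, a ratio of 2.10, whereas in the range of 2-fold to 4-fold there were 2220 and 1892. Over 16-fold, 51 probes were raised and 30 lowered. Without a threshold on size, 13892 probes (22.8%) had an adjusted limma p under 0.05, and here the decreases were more numerous, with 7952 lower (13.1%) and 5940 higher (9.76%). This order depended on the scaling: after cyclic loess normalization, 6558 were lower and 6971 higher. The median change over all probes was 0.01 on the log2 scale.

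The response was widest among probes of dim to middle brightness. Of 41154 probes whose mean over the 6 arrays was from 3 to 12, 11.7% were changed. Of 3692 probes with a mean of 12 or more, 5.74% were changed, of which 142 were raised and 70 lowered. Below a mean of 3, where most values sit at the floor of the scale, 0.707% of 15988 probes were changed. The median within-group SD fell with brightness, from 0.275 in Vehicle and 0.422 in Ang II at means of 3 to 4, to 0.063 and 0.108 at means of 15 or more. The median size of the change among changed probes was 1.44 from 3 to 12 and 1.33 from 12 upward.

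**Figure D2:**
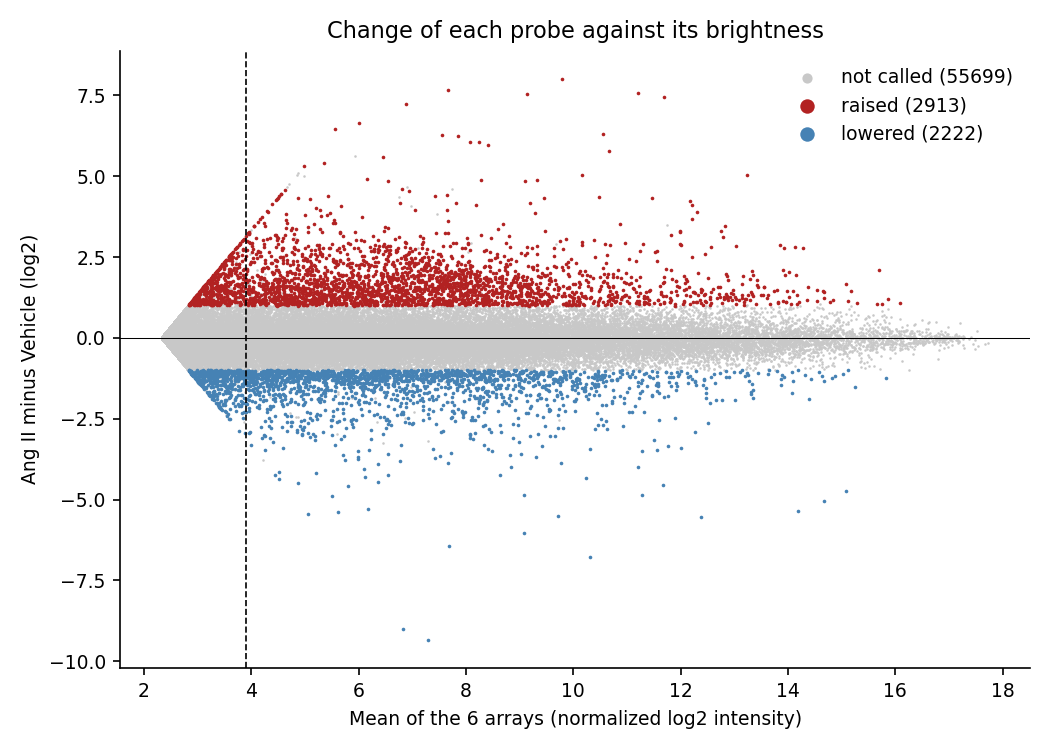
Each point is 1 of the 60834 probes, plotted by its mean over the 6 arrays (x axis, normalized log2 intensity) and by Ang II minus Vehicle (y axis, log2), with the 2913 raised probes in red, the 2222 lowered probes in blue and the background boundary of 3.9 as a dashed line. The points reach 8.01 upward and -9.33 downward, and narrow toward 0 at the bright end.

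**Figure D3:**
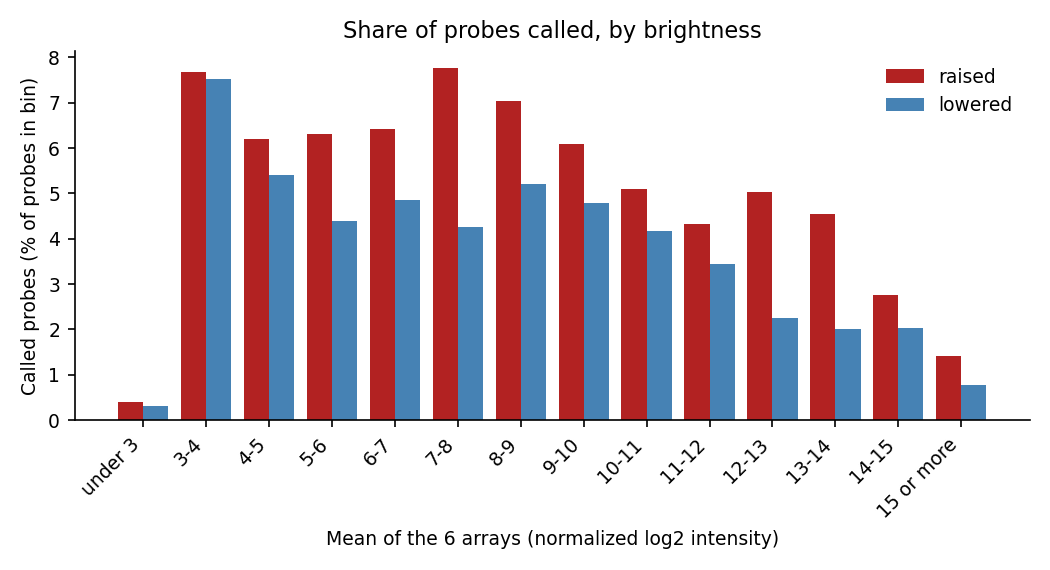
Percentage of probes raised (red) and lowered (blue) in each bin of mean normalized log2 intensity over the 6 arrays. Below 3 the share of changed probes is 0.707%, it is 15.2% from 3 to 4, and it is 2.19% at 15 or more.

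Probes that crossed the background boundary formed a small part of the response. A probe was counted as switched on when it was changed, lay below 3.9 on all 3 Vehicle arrays and at or above it on all 3 Ang II arrays, and as lost in the opposite case. By this rule 353 probes were switched on, 12.1% of the raised ones, and 279 were lost, 12.6% of the lowered ones. A further 3288 changed probes (64.0%) were at or above the boundary on all 6 arrays, with 1929 raised and 1359 lowered. Another 1115 (21.7%) had the arrays of at least 1 group on both sides, and 100 stayed below the boundary on all 6 arrays. Most of the counted response therefore lay between measured levels.

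The shares that crossed depended on where probes started. Of 19286 probes below the boundary on every Vehicle array, 1.83% were switched on. Of 38149 probes at or above it on every Vehicle array, 0.731% were lost. Quantile normalization kept the number of probes below the boundary nearly equal, at 21039 to 21043 per array. Crossings in the 2 directions must therefore nearly balance, and the shares differ in large part through their denominators. For a probe at background only a lower bound of the fold change can be given, with each array of the dim group taken at the boundary, or at its own value where that is higher. The bound for the switched-on probes had a median of at least 1.94-fold, and 169 of the 353 reached at least 2-fold, 51 at least 4-fold and 13 at least 8-fold. For the lost probes the median was at least 1.57-fold, and 76 of the 279 reached at least 2-fold, 15 at least 4-fold and 7 at least 8-fold. Both sets were thus mostly probes that moved between background and a low signal, with a median log2 value of 4.86 in Ang II for the switched-on probes and of 4.55 in Vehicle for the lost ones.

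Requiring all arrays of a group kept many crossings out. Of the 19286 probes that began below the boundary, 1758 were at or above it on 1 Ang II array alone, 485 on 2 and 457 on all 3. Of the 38149 that began above it, 1045 were below it on 1 Ang II array, 631 on 2 and 446 on all 3. Inside the last 20 columns of the grid, 0.650% of probes were switched on and 0.298% lost, compared with 0.571% and 0.481% elsewhere. When the group means were used in place of single arrays, the counts were 676 switched on and 573 lost. When Ang II replicate 1 was left out, which relaxes the rule to 2 Ang II arrays, they were 445 and 361.

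**Figure D4:**
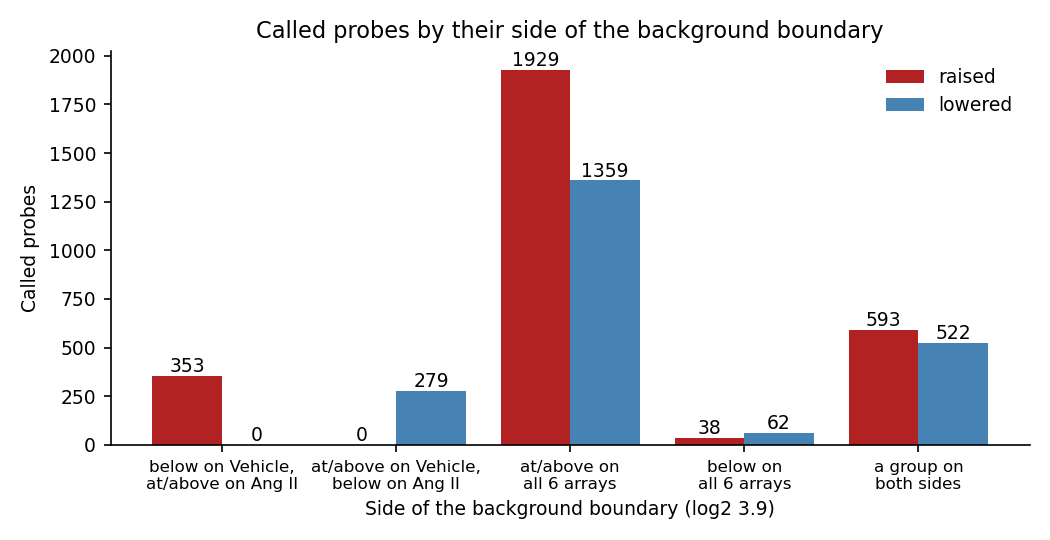
Number of raised (red) and lowered (blue) probes in each class of position relative to the background boundary of log2 3.9, with the count above each bar. The largest class is at or above the boundary on all 6 arrays, with 1929 raised and 1359 lowered, and 353 and 279 probes crossed from or to background.

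The largest changes among probes above the boundary in both groups were picked from probes without overlap, so their separation was set by the choice. Probe ASMM10P021954 read 5.64, 6.46 and 5.25 on the Vehicle arrays and 13.71, 13.52 and 14.16 on the Ang II arrays. It was raised 258-fold, with a log2 change of 8.01 ± 0.34 (SE; limma adjusted p = 4.25e-05). Every Ang II array was over 7 log2 units above every Vehicle array. Probe ASMM10P052736 went the other way, from 13.73, 13.88 and 13.45 to 7.33, 6.13 and 7.32, a log2 change of -6.76 ± 0.38 (SE; limma adjusted p = 0.000115), or 109-fold lower.

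For the extreme crossing probes, groups that do not overlap follow from the rule that defines a crossing. The switched-on probe farthest above the boundary, ASMM10P036113, read 3.81, 3.46 and 2.53 in Vehicle and 10.80, 9.19 and 11.56 in Ang II, at least 98.0-fold higher (limma adjusted p = 0.00106). The lost probe that had been farthest above it, ASMM10P031085, read 12.01, 11.56 and 12.30 in Vehicle and 2.35, 2.33 and 3.20 in Ang II, at least 267-fold lower (limma adjusted p = 2.37e-05). In Ang II the latter sat near the floor of the scale on the first 2 arrays and below the boundary on the third. The genes of these 4 probes are not known here.

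The size of the response varied from array to array. The groups did not overlap at 97.8% of the changed probes, compared with 38.3% of all probes (16.4% higher and 21.9% lower in Ang II). The probes were called on these same arrays, which favours groups that do not overlap, so the 97.8% is no independent measure of consistency. All 3 Ang II arrays were over 2-fold from the Vehicle mean at 3088 changed probes (60.1%), 2 of 3 at 1664 (32.4%) and only 1 of 3 at 383 (7.46%). Each array was also left out in turn, the probes were called on the other arrays, and the change was read on the one left out. The left-out array was set against the same arrays of the other group that had called the probes, so the values describe how the arrays differ and are no independent test of the response. Over the 6 arrays, the direction of the call was kept at 97.4% to 99.6% of the probes. The change was over 2-fold in that direction at 63.5% on Ang II replicate 3, the lowest, at 72.7% on replicate 2 and at 76.9% on replicate 1. With the Vehicle arrays left out, the same share was 67.4% for replicate 2 and 86.4% to 86.8% for the others. The median change on the left-out array was lowest for Ang II replicate 3, at 1.22, and Vehicle replicate 2, at 1.23, and highest for Vehicle replicate 3, at 1.56.

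The Ang II arrays differed more from each other than the Vehicle arrays did. The root mean squared difference over all probes was 0.311 to 0.396 between Vehicle arrays on the log2 scale and 0.460 to 0.604 between Ang II arrays, with both of the larger Ang II values involving replicate 1. Between the groups it ran from 0.654, for Vehicle replicate 2 against Ang II replicate 3, to 0.862, for Vehicle replicate 3 against Ang II replicate 1. Every distance between groups was therefore above every distance within a group. The median SD per probe was 0.108 in Vehicle and 0.171 in Ang II, and 388 and 1444 probes had an SD over 1. The mean distance within Ang II was 0.554, and it was 0.508 without the last 20 columns of the grid and 0.460 without replicate 1, against 0.350 in Vehicle.

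Of 8 mRNAs that could be named from the study, 4 were lower in Ang II: 2 integrin subunits, an integrin ligand and a calcium channel subunit. The 8 are mRNAs that the study selected for follow-up partly from these arrays, and their probes were identified by matching listed values, so their changes are a description and not independent evidence of the response. All 8 were called, compared with 8.44% of all probes, and did not overlap between the groups, compared with 38.3%, and nothing is read from this count. Itga8, the integrin alpha 8 subunit that smooth muscle cells use to bind matrix, read 10.95, 10.85 and 11.09 in Vehicle and 8.74, 8.29 and 9.11 in Ang II, and fell by 2.25 ± 0.22 on the log2 scale (SE; limma adjusted p = 0.000812). Itgav, the integrin alpha V subunit, read 7.37, 7.22 and 7.54 against 5.63, 5.60 and 5.86, and fell by 1.68 ± 0.11 (SE; limma adjusted p = 0.000205). Both subunits were lower on every Ang II array than on any Vehicle array.

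Npnt encodes nephronectin, a matrix protein that binds integrin alpha 8. It read 8.63, 8.38 and 8.87 in Vehicle and 6.60, 6.39 and 6.96 in Ang II, and fell by 1.98 ± 0.23 (SE; limma adjusted p = 0.00145). Cacna1c, the pore-forming subunit of the L-type calcium channel through which smooth muscle takes up calcium, was among the lost probes. It read 4.47, 4.56 and 4.50 in Vehicle, close to the boundary, and 2.35, 2.33 and 2.86 in Ang II. Only a bound of at least 1.53-fold lower follows from these levels (limma adjusted p = 0.000413). For the protein, the study reported a higher level in aortic smooth muscle cells and a lower one in endothelial cells after Ang II. The mRNA value of the whole aorta does not separate these cell types.

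Genes best known from heart muscle were higher in Ang II. Tnni3, the cardiac form of troponin I, read 7.55, 7.70 and 7.67 in Vehicle and 12.57, 12.56 and 12.90 in Ang II, and rose by 5.04 ± 0.64 on the log2 scale (SE; limma adjusted p = 0.00206), or 32.9-fold. The SE takes in the spread of the MK-626 arrays, while the SD was 0.08 in Vehicle and 0.19 in Ang II (n = 3 each). With limma on the 6 arrays alone the adjusted p was 0.000319. Only 0.0526% of the probes had a larger change in either direction. Mylk3, the cardiac myosin light chain kinase, read 5.32, 5.32 and 5.52 against 8.57, 8.81 and 7.69 and rose by 2.97 ± 0.43 (SE; limma adjusted p = 0.00353). Chrm2, the muscarinic acetylcholine receptor M2, read 2.53, 3.95 and 3.41 in Vehicle, with only 1 of 3 arrays above the boundary, and 7.41, 7.08 and 7.27 in Ang II. With the Vehicle arrays below the boundary taken at the boundary, it was at least 10.1-fold higher in Ang II (limma adjusted p = 0.00136). The probes of Mylk3 and Chrm2 lie in the last 20 columns of the grid. On Ang II replicate 1 both were within the range of the other Ang II arrays or within 0.2 of it. Of 10 cardiac markers listed for this comparison, the files named only these 3, and the part of other cell types in the aortic samples was not tested.

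Il6, the inflammatory cytokine interleukin 6, read 4.77, 5.25 and 5.07 in Vehicle and 7.85, 6.16 and 8.49 in Ang II. It rose by 2.47 ± 0.54 (SE; limma adjusted p = 0.0165), and the SD was 1.21 in Ang II compared with 0.24 in Vehicle (n = 3 each). Ang II replicate 2 was the lowest of its group, but remained above all Vehicle arrays, and with single arrays left out the log2 change ran from 1.98, without Ang II replicate 3 (limma adjusted p = 0.0314), to 3.15, without Ang II replicate 2 (limma adjusted p = 0.000803). The adjusted call was lost when Ang II replicate 1 (limma adjusted p = 0.0532), Vehicle replicate 1 (limma adjusted p = 0.0608) or Vehicle replicate 3 (limma adjusted p = 0.0520) was left out.

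A further 15 genes, most of them in wide use as reference genes, are printed on 20 spots each and were named because the scanner files give their accessions, not for their response. After adjustment, 6 of the 15 rose, 1 fell and 8 did not pass, while 22.8% of all probes passed in either direction. The set had a median log2 change of 0.27, against 0.01 over all probes, and the groups did not overlap at 10 of 15, compared with 38.3% of all probes. These are unlike probes: the median log2 value of the set was 12.44, against 5.31 over all probes, and each is printed on 20 spots. Over all probes, the median change was 0.007 below a mean of 3, and -0.081 to -0.027 in the brightness ranges from 3 upward. Only Actb passed the 2-fold call, 1 of 15 against 8.44% of all probes.

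Actb encodes beta-actin, the cytoplasmic actin of the cell skeleton. It read 14.16, 14.16 and 14.20 in Vehicle and 12.43, 12.07 and 12.80 in Ang II, and fell by 1.74 ± 0.16 on the log2 scale (SE; limma adjusted p = 0.000697), or 3.34-fold. The Vehicle arrays agreed within 0.04, whereas the Ang II arrays spread over 0.73. Within each array, Actb minus Gapdh was -1.55 ± 0.17 in Vehicle and -3.55 ± 0.44 in Ang II (SD, n = 3 each). Actb minus Hprt, a gene of purine salvage, was 0.03 ± 0.01 and -1.66 ± 0.33 (SD, n = 3 each). Measured against Gapdh and Hprt on the same array, Actb thus differed between Ang II and Vehicle by -2.01 and -1.69 log2 units.

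The genes that rose did so by less than 2-fold. Rpl13a, a protein of the large ribosomal subunit, rose by 0.69 ± 0.05 on the log2 scale (SE; limma adjusted p = 0.000241), from 11.97 to 12.01 on the Vehicle arrays to 12.62 to 12.77 on the Ang II arrays. Hsp90ab1, a cytosolic chaperone, rose by 0.56 ± 0.05 (SE; limma adjusted p = 0.000698). Gusb, a lysosomal glucuronidase, rose by 0.46, Tbp, the TATA-binding protein, by 0.45, Gk, a glycerol kinase, by 0.39, and G6pd2, a glucose-6-phosphate dehydrogenase, by 0.31, with limma adjusted p-values of 0.00422, 0.018, 0.013 and 0.0182. The adjusted calls of Tbp, Gk and G6pd2 were lost when single arrays were left out. Each was lost without Vehicle replicate 3, with limma adjusted p-values of 0.0509, 0.0505 and 0.0658. Tbp was also lost without Vehicle replicate 1 or 2 or Ang II replicate 1 (limma adjusted p = 0.0507 to 0.0644), and G6pd2 without Vehicle replicate 1 or Ang II replicate 1 (limma adjusted p = 0.0605 and 0.0507). Other settings that ended these calls were the replicate block for G6pd2 (limma adjusted p = 0.0525), limma on the 6 arrays alone for Tbp (adjusted p = 0.0537), and the plain equal-variance test for Tbp and Gk (adjusted p = 0.103 and 0.0658).

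The other 8 reference genes did not pass the adjusted threshold with limma. Gapdh, the glycolytic enzyme used as the qRT-PCR reference in the study, read 15.74, 15.86 and 15.56 in Vehicle and 16.01, 16.05 and 15.90 in Ang II, a difference of 0.27 ± 0.08 (SE; limma adjusted p = 0.0544). The groups did not overlap, with the lowest Ang II array 0.04 above the highest Vehicle array, and the difference passed without Vehicle replicate 2 (limma adjusted p = 0.0281), after cyclic loess (limma adjusted p = 0.043) and with array weights (limma adjusted p = 0.0449). Ldhal6b passed with array weights (limma adjusted p = 0.0257). That fit leans on 1 array outside the comparison, an MK-626 array with a weight of 129 compared with 0.177 to 5.01 on the other arrays. Hprt and Tfrc, the transferrin receptor, had differences of -0.05 and -0.09, and Ppia, Ldhal6b, B2m, Nono and Tuba1b of 0.09 to 0.35. The 0.35 was that of Ldhal6b, which read 3.89, 3.89 and 3.91 in Vehicle, at the background boundary, so only a bound of at least 1.27-fold follows. Separate control probes at the ends of the Gapdh transcript differed in their behaviour. The 3' probe minus the 5' probe was 1.78, 1.85 and 1.70 in Vehicle and 2.20, 2.26 and 1.96 in Ang II, so the difference was wider by 0.36 on the log2 scale. For Pgk1, a second glycolytic enzyme, it was 7.66 in Vehicle and 7.70 in Ang II on average. The part of RNA quality in the results was not tested.

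**Figure D5:**
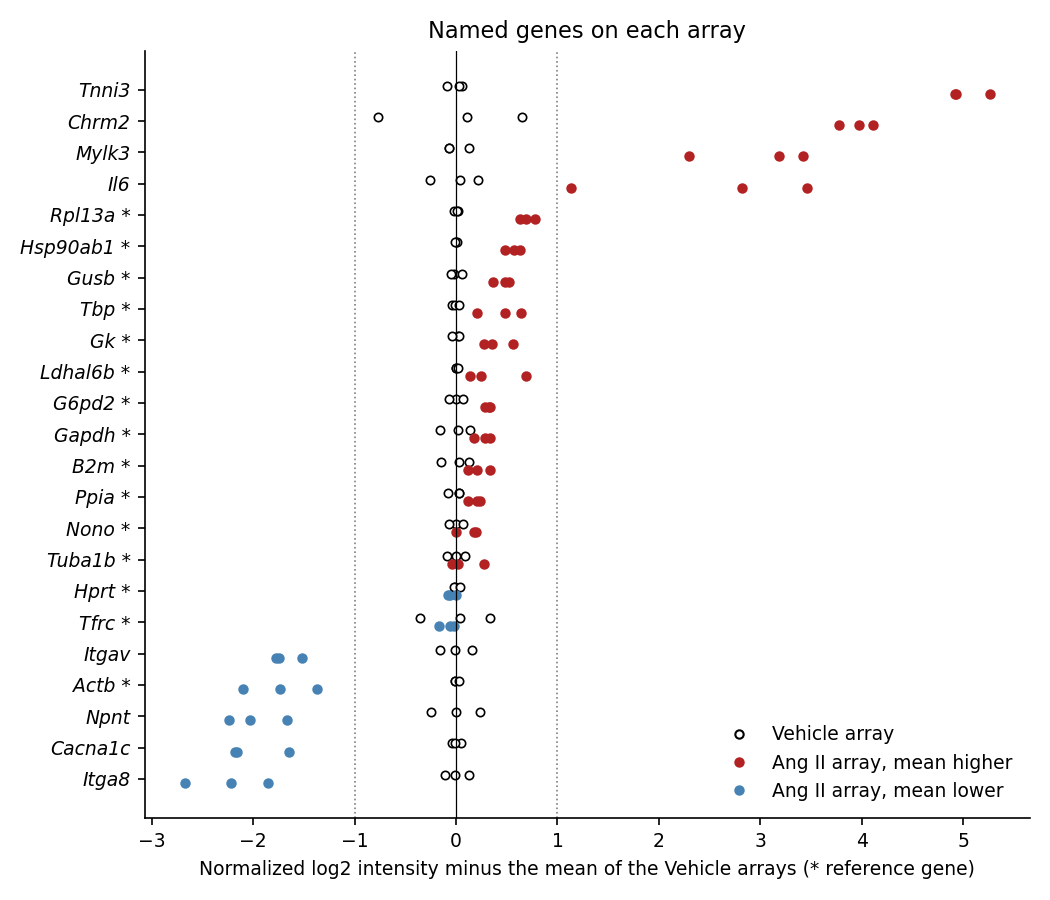
Normalized log2 intensity of each named gene on each array, minus the mean of the Vehicle arrays (x axis), with Vehicle arrays as open circles, Ang II arrays as filled circles (red where the group mean is higher, blue where it is lower) and dotted lines at a 2-fold change. Reference genes are marked with an asterisk, and Actb is the only one of the 15 beyond a dotted line, with Ang II arrays at 12.07 to 12.80 against 14.16 to 14.20 in Vehicle.

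Probes whose names mark long intergenic noncoding RNAs (lincRNAs) took part in the response and were mostly dim. Such transcripts are longer than small regulatory RNAs and lie between protein-coding genes. Of 1836 probes named for human, mouse or exon-mapped lincRNAs, 35 were raised and 30 lowered (3.54%, compared with 8.44% of all probes). Other lncRNA probes of the arrays could not be told from mRNA probes by name, so these counts leave them out. Only 31.2% of them reached the background boundary in the mean of either group, compared with 67.8% of all probes. Among those that did, 9.25% were changed, compared with 11.7%. No test was made of this difference. Most lincRNA probes came as a pair for the strands of 1 locus, but only 87 of 876 pairs had both probes above the boundary, so changes on both strands could seldom be seen. In 63 pairs at least 1 probe was changed, and in 0 both were.

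The lincRNA probes with the largest decrease and increase were chosen after their values were seen. The probe humanlincRNA0065- read 13.64, 13.78 and 13.67 in Vehicle and 8.88, 8.89 and 8.77 in Ang II. It fell by 4.85 ± 0.09 on the log2 scale (SE; limma adjusted p = 1.72e-06), or 28.8-fold, with an SD of 0.08 in Vehicle and 0.07 in Ang II (n = 3 each). The probe humanlincRNA2099- read 4.09, 3.96 and 2.98 in Vehicle and 6.88, 7.16 and 6.80 in Ang II, at least 7.78-fold higher (limma adjusted p = 0.00125). Its Vehicle level was near the boundary, above it on 2 of 3 arrays, so the size of the increase and its rank rest in part on background.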

How the data were processed

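Per the labels and the study's methods, total RNA of the aortae was depleted of rRNA, labelled with Cy3 by random priming and hybridized to Arraystar Mouse LncRNA arrays (Version 3.0). The authors extracted spot intensity with Agilent Feature Extraction 11.0.1.1, used GeneSpring GX for quantile normalization and deposited the resulting log2 values. The intensity and background flags in the deposited scanner files of the 3 MK-626 arrays were used only for the boundary (the value from which at least 50% of probes, in bins of 0.1, passed the well-above-background flag, averaged over 3 arrays) and the layout. For the Vehicle and Ang II arrays, scanner output was not used here. The array's annotation build is mm9. The number of arrays, 3 per group, limits the precision: an exact permutation test, two-sided, cannot go below a p of 0.1.

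limma 3.58.1 (R 4.3.3) fitted 1 mean per group over 9 arrays. A probe was called at a fold change over 2 with p under 0.05, the study's threshold, and p-values were adjusted by Benjamini-Hochberg over 60834 probes. A named gene was said to rise or fall at an adjusted p under 0.05. Python 3.11.15 with pandas 2.3.3, numpy 2.4.6 and matplotlib 3.10.9 served for tables and plots. The fit was tested on simulated data.

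Genes were named for 15 probes through RefSeq accessions in the scanner files and for 8 through the 9 values listed for them in the study's supplement, each of which matched 1 probe. Named were all such genes, the probes with the largest change in each direction among those above the boundary in both groups that passed the adjusted threshold without overlap, and the crossing probes farthest from the boundary. The groups of genes and the probes were chosen with earlier results of these data known. As alternatives, each array was left out, and the results were recomputed with cyclic loess, array weights, a filter on dim probes, a replicate block, limma on 6 arrays, a mean-variance trend, one-way ANOVA, an unmoderated equal-variance test, the adjusted p and other boundaries. The filter on the last 20 columns was added after seeing the data.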

Additional observations from a re-analysis of the deposited data

Results flagged for a closer look

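Among the 68 control probes that were left out of the tests, 1 passed the 2-fold call, and it was picked up as a signal outside the main measurement. The probe ETG10_13482 read 2.68, 3.03 and 2.63 on the Vehicle arrays, all below the background boundary of 3.9, and 6.29, 5.01 and 4.89 on the Ang II arrays, all above it. The fitted log2 difference of 2.62 ± 0.36 (SE; limma adjusted p = 0.0028, fitted with the other probes) rests on Vehicle values at background, from which only a bound of at least 2.83-fold higher follows. The highest value was that of Ang II replicate 1.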

How the results depend on the processing

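Counts of changed, raised and lowered probes stayed within 1.5 times the reported ones under each alternative. The changed probes numbered 4603 to 5585 when single arrays were left out, the raised ones 2546 to 3090 and the lowered ones 2057 to 2495, and the other settings gave 4283 (dim probes left out) to 5420 (array weights, where an MK-626 array had a weight of 129) changed probes. No probe called under both the reported fit and an alternative turned its direction. Cyclic loess moved the split from 2913 raised and 2222 lowered to 3241 and 1839. With single arrays left out, 10.4% to 12.6% of the probes above the boundary were changed, and the median size of the change was 1.40 to 1.43. The groups did not overlap at 99.8% to 99.9% of the probes so called, where fewer arrays had to be separate.

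The crossing counts depended most on the settings. With dim probes left out, 199 were switched on and 127 lost, the filter being on the mean over the 9 arrays. With group means in place of all arrays, 676 and 573 were counted. A boundary 0.5 lower gave 331 and 252, and one 0.5 higher 398 and 293. Leaving out single arrays gave 374 to 450 switched on and 298 to 408 lost, with 1 array fewer to satisfy. Without the last 20 columns of the grid 305 and 257 were counted. The mean distance between arrays was 0.460 to 0.604 in Ang II and 0.311 to 0.396 in Vehicle with single arrays left out.

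Replicate numbers gave no pairing: deviations of same-numbered arrays from their group means correlated at -0.032, 0.013 and -0.001. A block for the replicate gave 5038 changed probes (2856 raised and 2182 lowered), 351 switched on and 275 lost. Over the log2 changes of the 23 named genes, 275 values under alternatives kept their direction and their side of the adjusted threshold, 17 fell below it, 5 passed it and 2 turned sign, with the adjusted p not counted as an alternative because it already decides these calls. The latter were Tfrc without Vehicle replicate 2 (0.08, in a range of -0.27 to 0.08 with single arrays left out) and Tuba1b without Ang II replicate 2 (-0.01, in a range of -0.01 to 0.15). Gapdh passed the adjusted threshold by one-way ANOVA (adjusted p = 0.0386). Il6 also missed the adjusted threshold by the plain test (adjusted p = 0.109) and with limma on the 6 arrays alone (adjusted p = 0.0525). Summaries of gene lists with the brightest or the mean probe per gene were not run, because the files name too few genes.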
